A study of Mus musculus with 16 samples.

Results

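The genes described here are 10 transcription factors that divide the developing neural tube along its dorsal to ventral axis, GSX1, PAX3, PAX6, PAX7, NKX2-2, NKX6-1, OLIG2, DBX1, IRX3 and LHX2. They were taken by name from the deposited table of array intensities, where they had 13 of 45281 probes and made up 10 of 30854 target names. The set was selected on a value of these same arrays, the lower level of GSX1 with BMP4 in co-cultures, so that comparison is given as a description with no test for any of them. Mouse embryonic stem (ES) cells with an EGFP knock-in at the tau locus had been cultured on top of PA6 cells, stromal cells of mouse bone marrow origin, in serum-free medium to day 7, and the PA6 layer had also been grown alone. ES/PA6 co-cultures had received no growth factor (-GFs, 2 arrays), FGF2 (3 arrays) or BMP4 (2 arrays), and PA6 mono-cultures had 3 arrays of each kind. Per the labels, FGF2 was at 20 ng/ml and BMP4 at 10 ng/ml, and the factor was present for 3 days in the sample characteristics and throughout the culture in another field. In the methods a lower dose is stated for BMP4. All co-culture arrays hold RNA of ES-derived cells and of the PA6 layer together, from 1 ES line and 1 stromal line, with no sorting. In such a mixture fewer cells of a type and less RNA per cell cannot be told apart.

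In the neural tube, Sonic hedgehog from the floor plate and notochord acts against BMP and WNT signals from the roof plate, and progenitors at each height turn on a different set of homeodomain, paired box and bHLH factors. Factors of neighbouring domains repress each other, which makes the borders sharp. FGF and BMP signals also act earlier, when cells choose between neural, epidermal and mesodermal fates, and BMP4 is known as an inhibitor of the neural choice. PAX3 and PAX7 mark dorsal progenitors, GSX1 dorsal interneuron progenitors, and PAX6, DBX1 and IRX3 lie between both poles. NKX6-1, OLIG2 and NKX2-2 mark ventral progenitors, and LHX2 is a LIM homeodomain factor of the forebrain and eye.

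The stretch of 250 bases before and 50 after the gene start was available from RefSeq (build GRCm38.p6) for 9 of the 10 genes, as 11 promoters. PAX3 had no entry. The 4 promoters of the genes whose array values the results turn on are shown here, 5′ to 3′ on the coding strand, with capitals for matches to GGCGCC, a GC-rich element that SMAD proteins of the BMP pathway are known to bind. GSX1 lies at chr5:147188446-147188745 on the plus strand, NKX6-1 at chr5:101664662-101664961 on the minus strand, DBX1 at chr7:49636786-49637085 on the minus strand and IRX3 at chr8:91801605-91801904 on the minus strand.
GSX1: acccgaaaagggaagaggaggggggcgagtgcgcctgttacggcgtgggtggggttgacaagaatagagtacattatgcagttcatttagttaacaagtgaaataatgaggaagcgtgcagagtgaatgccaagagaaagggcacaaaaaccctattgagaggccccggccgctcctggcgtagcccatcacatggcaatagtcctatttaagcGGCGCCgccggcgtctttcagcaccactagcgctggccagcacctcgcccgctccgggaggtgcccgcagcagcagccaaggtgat
NKX6-1: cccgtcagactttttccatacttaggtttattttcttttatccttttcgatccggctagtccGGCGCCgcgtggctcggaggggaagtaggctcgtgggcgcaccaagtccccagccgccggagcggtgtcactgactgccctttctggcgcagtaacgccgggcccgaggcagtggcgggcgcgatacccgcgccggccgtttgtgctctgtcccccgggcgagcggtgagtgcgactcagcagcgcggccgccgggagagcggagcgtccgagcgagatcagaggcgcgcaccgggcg
DBX1: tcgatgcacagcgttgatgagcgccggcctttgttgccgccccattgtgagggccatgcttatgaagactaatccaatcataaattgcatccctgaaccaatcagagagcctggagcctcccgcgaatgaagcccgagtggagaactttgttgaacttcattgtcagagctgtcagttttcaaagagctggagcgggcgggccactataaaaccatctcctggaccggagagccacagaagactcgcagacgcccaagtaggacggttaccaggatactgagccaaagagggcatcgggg
IRX3: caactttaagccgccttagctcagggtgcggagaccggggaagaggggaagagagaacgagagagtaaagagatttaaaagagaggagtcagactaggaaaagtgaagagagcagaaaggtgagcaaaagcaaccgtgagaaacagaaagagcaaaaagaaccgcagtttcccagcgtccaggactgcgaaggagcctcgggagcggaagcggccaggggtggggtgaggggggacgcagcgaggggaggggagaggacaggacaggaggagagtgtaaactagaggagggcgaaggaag

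The GSX1 promoter held GGCGCC once, from position -36 counted from the start, and the NKX6-1 promoter once, from position -188. OLIG2 had 2 matches, LHX2 had 1 in 1 of its 2 promoters, and the windows of DBX1 and IRX3 had none of these letters. GGCGCC reads the same on both strands and was found in 11.9% of 32851 mouse promoters of the same length. The promoters shown had a GC content of 57.0% (GSX1), 67.3% (NKX6-1), 54.0% (DBX1) and 56.0% (IRX3), against a median of 52.7% over all promoters. GACCACCCA, the site of the GLI factors of Sonic hedgehog signalling, was searched on both strands and occurs in 0.253% of promoters. CCGGAAGT, an ETS site, occurs in 3.89% on either strand, and TAATTA, a homeodomain core that reads the same on both strands, in 5.29%. These 3 motifs were in no promoter of the 9 genes. A match is a description of the letters alone.

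An array detected 37.3% to 47.0% of probes (16904 to 21261), with a median raw intensity of 177.9 to 232.2. Replicate arrays correlated with r of 0.973 to 0.980 for co-cultures and 0.975 to 0.986 for PA6. A probe was taken as detected where its deposited detection p-value was under 0.05. Levels are log2 of background corrected and quantile normalized intensity, and the lowest level detected on an array was 6.25 to 6.96. Levels of different probes were not set against each other. A gene was retained for the fits when 1 of its probes was detected on every array of at least 1 group, which held for 14829 genes. Of the 10 factors 5 were retained, namely GSX1, DBX1, IRX3, NKX6-1 and PAX3, through 6 probes.

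Factors above background and factors at background were found among dorsal and among ventral genes. The retained genes include the dorsal PAX3 and GSX1, the intermediate DBX1 and IRX3, and the ventral NKX6-1. PAX6, PAX7, NKX2-2, OLIG2 and LHX2 missed the detection limit on at least 1 array of each group. Their 7 probes gave 112 values over the 16 arrays, of which 3 (2.68%) were detected, and 5 of the probes were detected on no array.

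**Figure D1:**
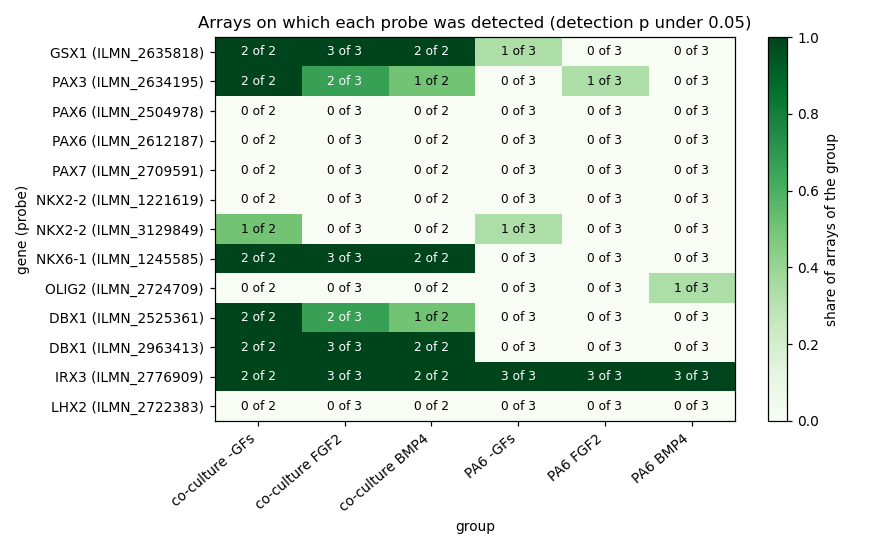
Number of arrays of each group (columns) on which each of the 13 probes (rows) was detected, with the share of the group's arrays as colour. IRX3 was detected on all 16 arrays, NKX6-1 and the DBX1 probe ILMN_2963413 on all 7 co-culture arrays and no PA6 array, the DBX1 probe ILMN_2525361 on 5 of the 7, and the probes of PAX6, PAX7 and LHX2 on none.

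The 2 probes of PAX6, a factor of intermediate progenitors, cortex and eye, stayed between 5.48 and 5.80 and between 5.49 and 6.75. Their lowest detection p-value was 0.0545. PAX7, which marks dorsal progenitors, ranged from 5.25 to 5.92, and LHX2 from 5.36 to 6.32. None of these 4 probes rose above background on any array.

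NKX2-2, which marks the most ventral neural progenitors, had 1 probe (ILMN_1221619) at 5.41 to 6.59 and undetected throughout. Its other probe (ILMN_3129849) was detected on co-culture -GFs replicate 2, at 6.73, and on PA6 -GFs replicate 2, at 7.30. OLIG2, the factor of motor neuron and oligodendrocyte progenitors, was detected on PA6 BMP4 replicate 2 at 7.06 and lay between 5.36 and 6.47 on the other arrays. No group of NKX2-2 or OLIG2 had more than 1 detected array, so these genes are not described as expressed in any group. NKX6-1, NKX2-2 and PAX6 are also known from the endocrine pancreas, and PAX6 and LHX2 from the retina. Of the marker lists for those tissues, 0 of 7 pancreatic endocrine genes and 0 of 6 retinal genes were retained.

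GSX1, a homeodomain factor of dorsal interneuron progenitors and of the embryonic striatum, gave the value the set was selected on. Its level (probe ILMN_2635818) was 9.56 and 9.83 on the -GFs co-cultures, 8.09, 7.45 and 7.89 with FGF2, and 6.87 and 6.94 with BMP4. The 3 groups did not overlap and stood in the order -GFs, FGF2, BMP4. In raw intensity the -GFs arrays were at 916.7 and 1042.6, the FGF2 arrays at 377.5 to 529.4 and the BMP4 arrays at 261.7 and 266.2.

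The GSX1 mean was 9.69 ± 0.19 (SD, n = 2) without growth factors, 7.81 ± 0.33 (SD, n = 3) with FGF2 and 6.91 ± 0.05 (SD, n = 2) with BMP4. BMP4 was lower than -GFs by a log2 fold change of -2.79, which is 6.91-fold, and FGF2 by -1.88, which is 3.69-fold. These differences share the -GFs arrays and were not tested. The BMP4 arrays were detected but lay in the range of the lowest detected levels of the 16 arrays, where differences are compressed. Without background correction the BMP4 difference was -1.83.

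In PA6 alone GSX1 was detected on -GFs replicate 1, at 6.96, and was undetected on the other 8 arrays, at 5.47 to 5.79. That single PA6 array was above both BMP4 co-cultures. GSX1 was not called with FGF2 or BMP4 in PA6, with differences from -GFs of -0.32 (95% confidence interval -1.12 to 0.47) and -0.36 (-1.15 to 0.44). These differences rest on that single array against background values, so they measure no response. With FGF2 the mean was 7.81 in co-cultures and 5.66 in PA6, at least 2.01-fold higher, which is given as a description because GSX1 was retained only through co-culture groups. Here and below, "at least" sets the co-culture mean against the detection level of arrays on which a gene was undetected.

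**Figure D2:**
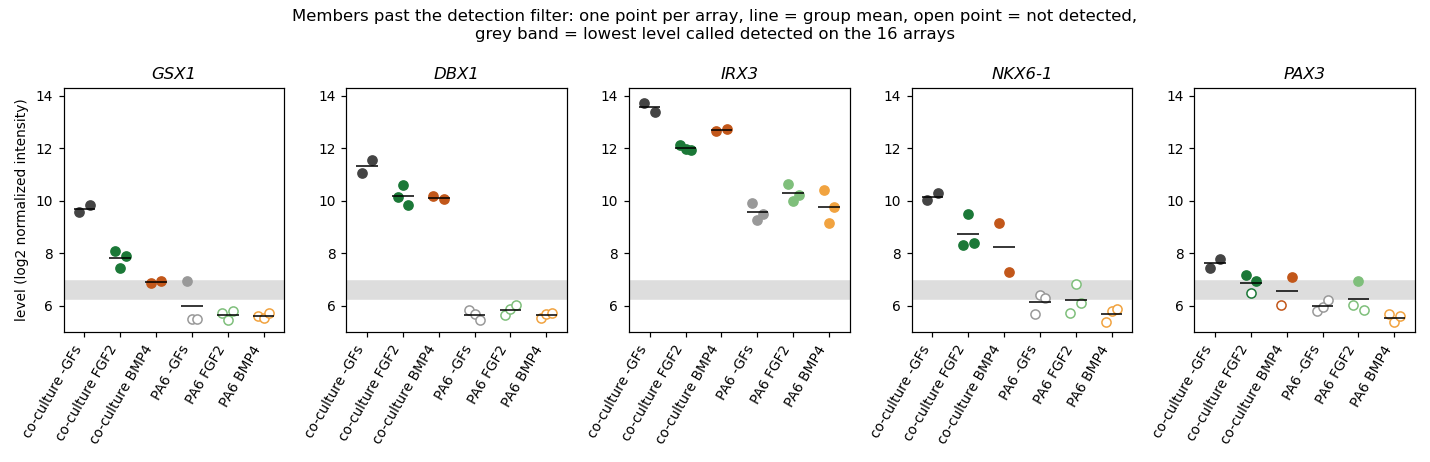
Levels (y axis, log2 normalized intensity) of the 5 retained genes on each array, by group, with the group mean as a line, open points for undetected arrays and a grey band from 6.25 to 6.96 for the lowest detected levels of the 16 arrays. Every gene was highest in -GFs co-cultures, and IRX3 is the gene detected on all PA6 arrays.

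The next question was which of the factors changed when FGF2 was added to co-cultures. IRX3 and DBX1, both factors of intermediate progenitors, fell. NKX6-1 and PAX3 were lower on average and did not pass the test. Calls needed a limma adjusted p under 0.1 and a log2 fold change beyond 1 in either direction. Of 4 factors tested 2 were called, both lower, and over all genes 7.42% were called (1100 of 14829). All FGF2 arrays of GSX1 and of these 4 lay below both -GFs arrays, as held for 22.1% of all genes. For GSX1, selected in part on the -GFs arrays, and PAX3, retained through them alone, this was partly built in. Nothing is read from the count for these genes.

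IRX3, an Iroquois homeodomain factor that sets the border with the motor neuron domain by repressing OLIG2, was 1 of the 2 called. Its levels were 13.72 and 13.39 on the -GFs co-cultures and 12.11, 11.95 and 11.92 with FGF2. The FGF2 arrays lay within 0.2 of each other and more than 1 log2 unit below the -GFs arrays. The change was -1.56 ± 0.18 (SE, adjusted p = 0.0075), or 2.96-fold lower. It kept its call in each fit that left out 1 array, at -1.73 to -1.40.

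DBX1, which defines the progenitors of V0 interneurons, had levels of 11.05 and 11.56 without growth factors and 10.13, 10.60 and 9.86 with FGF2 (probe ILMN_2963413). The groups did not overlap, and the gap between the nearest arrays was smaller than for IRX3. The change was -1.11 ± 0.27 (SE, adjusted p = 0.0577), or 2.16-fold lower. It lost its call without -GFs replicate 1 (-1.37), -GFs replicate 2 (-0.86), FGF2 replicate 1 (-1.08) or FGF2 replicate 3 (-0.94), and its adjusted p ran from 0.00496 to 0.257 over all alternatives. The dimmer probe of DBX1 (ILMN_2525361) read 7.53 and 7.99 without growth factors and 6.08, 7.77 and 6.43 with FGF2. Its means were 7.76 and 6.76 (SE of the difference 0.47, adjusted p = 0.266), and its groups overlapped at FGF2 replicate 2.

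NKX6-1, a ventral progenitor factor induced by Sonic hedgehog, had 10.02 and 10.29 without growth factors and 8.32, 9.51 and 8.37 with FGF2. FGF2 replicate 2 stood over 1 log2 unit above the other FGF2 arrays, as it was also the highest FGF2 array of DBX1. The difference was -1.42 ± 0.58 (SE, adjusted p = 0.204), with a 95% confidence interval from -2.78 to -0.06. It was called under median scaling (adjusted p = 0.0162), with the variance taken from all 16 arrays (adjusted p = 0.0812) and when runs of deposited columns entered as a block (adjusted p = 0.0236), and its adjusted p ran from 0.0162 to 0.472 over all alternatives.

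PAX3, a paired box factor of dorsal progenitors, neural crest and somites, had 7.45 and 7.80 without growth factors and 7.19, 6.50 and 6.94 with FGF2. FGF2 replicate 2 was not detected. PAX3 was retained through the -GFs co-cultures alone, where it was highest. A lower level with FGF2 was thus partly built in, and the fit of PAX3 gives no support for a change. Its difference was -0.75 ± 0.36 (SE, adjusted p = 0.269, 95% confidence interval -1.59 to 0.09).

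The deposited columns stand in 3 runs, each starting at a PA6 -GFs array, and 2 runs hold both -GFs and FGF2 co-cultures. What a run stands for is not given in the sources used here. Within them IRX3 differed by -1.62 and -1.47, DBX1 by -0.92 and -1.71, NKX6-1 by -1.70 and -1.91, PAX3 by -0.26 and -0.86, and GSX1 by -1.46 and -1.94. IRX3, DBX1 and NKX6-1 were lower with FGF2 in both runs. So were GSX1 and PAX3, for which this was partly built in by selection and retention on the -GFs arrays.

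Markers of other cell states moved with FGF2 beside these genes. The summed level of 7 neural progenitor markers was 13100 to 13300 in -GFs co-cultures and 6320 to 6450 with FGF2. Only 2 of the 7, NES and HES5, were called lower, and such a sum is weighted to the brightest genes. Of the 7 estimates 6 were below 0, while SOX2 was higher with FGF2 (11.02 against 10.57, not called). The 8 neuronal markers summed to 23700 to 46800 and 24400 to 27700, with 2 called lower, ELAVL3 and NEFM. The 10 pluripotency markers summed to 42000 to 47700 and 122000 to 141000, and 9 of them rose. Endothelial markers, of which 3 of 8 were retained, summed to 256 to 351 and 1840 to 3330. TEK and EMCN among them were undetected without growth factors and retained only through co-cultures with a factor. This rise is thus partly built into retention. Neural crest markers summed to 19300 to 26600 and 12500 to 15300, with EDNRB called lower. Paraxial mesoderm and muscle markers summed to 957 to 1340 and 1930 to 2220, with TCF15 and DES called higher. Surface ectoderm markers summed to 2480 to 3340 and 4320 to 5370, with CDH1 called higher. Stromal markers overlapped, at 64000 to 71500 and 61700 to 72000, as did adipocyte and oligodendrocyte markers. The part of these markers in the lower levels of the patterning factors was not tested.

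With BMP4 in co-cultures the same 5 genes were again below -GFs, and 4 of them by more than 1 log2 unit, or 3 to 4 when 1 array was left out. The background was 3.75% of genes called over all genes, and in 23.3% of genes both BMP4 arrays lay below both -GFs arrays. Nothing is read from these shares, since the set was selected on this comparison. NKX6-1 had 9.17 and 7.30 with BMP4, a difference from -GFs of -1.92. Its BMP4 arrays differed from each other by more than those of any other retained factor, and the difference was -0.99 without the lower one and -2.86 without the higher one.

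DBX1 had 10.18 and 10.05 with BMP4 and was lower by -1.19. PAX3 had 6.01, undetected, and 7.10, and was lower by -1.07, or by -0.52 without the undetected array and -1.61 without the other. IRX3 had 12.66 and 12.73 and was lower by -0.86. Only GSX1 and IRX3 had BMP4 arrays that lay apart from both other co-culture groups. Within the single run of columns that holds both groups, the differences were -2.89 for GSX1, -2.99 for NKX6-1, -1.51 for DBX1, -0.70 for PAX3 and -0.65 for IRX3. Here the 7 surface ectoderm markers, keratins among them, summed to 19800 to 35000 with BMP4 and to 2480 to 3340 without growth factors. Of these 7, 3 were detected on every -GFs array and 7 on every BMP4 array. Part of this rise can thus come from retention through the BMP4 arrays. Neuronal markers summed to 14600 to 15300 with BMP4 and neural progenitor markers to 7930 to 8240. The pluripotency markers summed to 73500 to 94300 with BMP4, above all -GFs arrays, and 3 of the 10, NANOG, ZFP42 and ESRRB, rose. The 3 endothelial markers summed to 1520 to 1610 with BMP4, also above -GFs, and PECAM1 and TEK were called higher. TEK and EMCN were undetected on the -GFs arrays and retained only through co-cultures with a factor. Their rise is thus partly built into retention, and the call of TEK carries no support. The part of these markers was not tested.

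BMP4 and FGF2 were compared directly to see where the factors differ between the cytokines. No factor was called (0 of 4 tested), and over all genes 1.44% were called. At an unadjusted p under 0.05 there were 2104 of 14829 genes. IRX3 was the one tested factor whose groups did not overlap, higher with BMP4 by 0.71 ± 0.18 (SE, adjusted p = 0.154), with a confidence interval from 0.28 to 1.13. Over all genes these groups did not overlap, in either direction, for 31.4%. DBX1 differed by -0.08 (95% confidence interval -0.71 to 0.55), NKX6-1 by -0.50 (-1.86 to 0.86) and PAX3 by -0.32 (-1.16 to 0.52). GSX1 was lower with BMP4 by -0.91, with no overlap and no test. Among co-culture means GSX1 was lowest with BMP4, the value the set was selected on. IRX3 was lowest with FGF2, where its difference from BMP4 was not called.

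**Figure D3:**
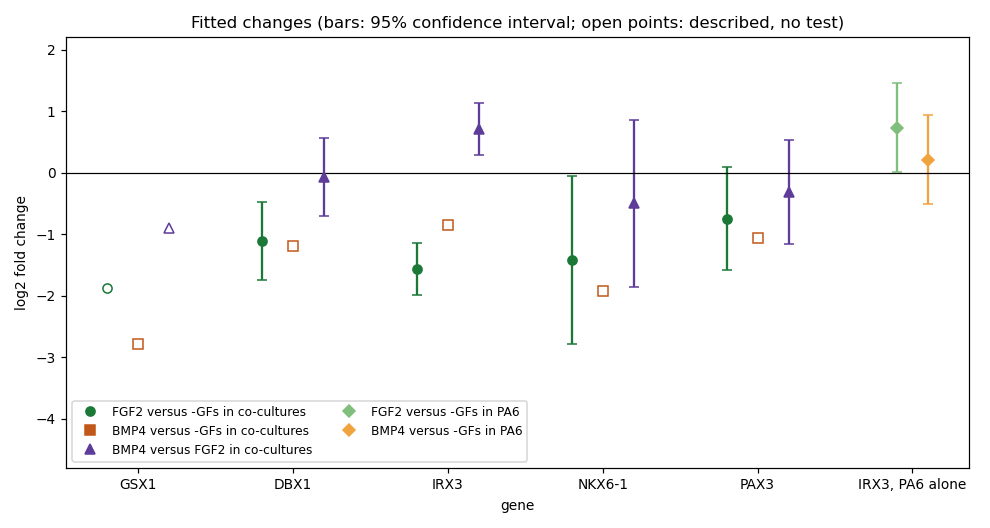
Log2 fold changes (y axis) of the 5 retained genes in co-cultures for FGF2 and BMP4 against -GFs and for BMP4 against FGF2, and of IRX3 in PA6 alone. Bars are 95% confidence intervals of tested comparisons and open points are values given as a description, and IRX3 is below 0 in co-cultures (-1.56 with FGF2) and above 0 in PA6 (0.73).

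PA6 mono-cultures served to tell the response of the stroma from that of the ES-derived cells. IRX3 is the factor detected on all arrays of the stroma alone. Its PA6 levels were 9.92, 9.27 and 9.50 without growth factors, 10.65, 9.98 and 10.24 with FGF2, and 10.40, 9.16 and 9.77 with BMP4. All FGF2 arrays lay above all -GFs arrays, while the BMP4 arrays spread over both groups. The FGF2 and -GFs arrays of PA6 did not overlap, in either direction, for 16.7% of all genes. The FGF2 difference was 0.73 ± 0.32 (SE, adjusted p = 0.482) and the BMP4 difference 0.21 ± 0.32 (SE, adjusted p = 0.872). These fits did not pair arrays, though PA6 arrays of 1 run deviated together (r over 0.1 in 7 of 9 pairs). Over all alternatives, blocks among them, the FGF2 adjusted p ran from 0.172 to 0.71, with no call. Within the 3 runs of columns FGF2 was higher by 0.74, 0.71 and 0.73.

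No factor was called with either cytokine in PA6. Over all genes 0.027% were called with FGF2 (4 genes) and 0% with BMP4 by limma, where 1334 genes had an unadjusted p under 0.05. DBX1 and NKX6-1 were undetected on all 9 PA6 arrays, at 5.47 to 6.05 and 5.40 to 6.82. PAX3 was detected on PA6 FGF2 replicate 2, at 6.96, and on no other PA6 array.

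The estimated FGF2 effects on IRX3 had opposite signs in the kinds of culture, and the effect in PA6 was not called. An interaction term over all 16 arrays, added after the opposite directions had been seen, gave -2.29 ± 0.41 (SE, adjusted p = 0.00518), the difference between -1.56 in co-cultures and 0.73 in PA6. Over all genes 7.9% passed this test. For IRX3 the term was prompted by these same values, so its p is not independent of them. DBX1 and NKX6-1 were undetected on every PA6 array, and PAX3 and GSX1 each on 8 of the 9. No PA6 response could be measured for these genes to set beside that in co-cultures.

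The means of the retained factors were higher in co-cultures than in PA6 alone. GSX1, DBX1, NKX6-1 and PAX3 were retained only through co-culture groups, so a difference from PA6 was built into their retention, and their values are given as a description with no test. IRX3 was detected in every group and is free of this. Its mean was 13.56 ± 0.24 (SD, n = 2) in -GFs co-cultures and 9.57 ± 0.33 (SD, n = 3) in PA6, 15.9-fold higher (adjusted p = 1.16e-07). It was 3.25-fold higher with FGF2 (adjusted p = 8.6e-05) and 7.57-fold higher with BMP4 (adjusted p = 2.47e-06). Over all genes 44.1% were called in the -GFs cultures, 46.4% in those with FGF2 and 42.4% in those with BMP4. Stromal markers summed to 61700 to 82200 over the co-culture arrays and to 201000 to 257000 over the PA6 arrays, and their part in these differences was not tested.

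DBX1 was at least 24.5-fold higher in co-cultures than in PA6 without growth factors (11.31 against 5.66), at least 10.5-fold with FGF2 and at least 9.63-fold with BMP4. NKX6-1 was at least 11.0-fold higher without growth factors (10.15 against 6.14), 3.81-fold with FGF2 and 2.61-fold with BMP4, all lower bounds. The bound with BMP4 rests on co-culture BMP4 replicate 1, without which the log2 difference was 1.61 in place of 2.54. PAX3 was at least 1.91-fold higher without growth factors (7.63 against 5.99). With FGF2 its mean differed by 0.60 between the cultures. With BMP4 PAX3 was undetected on all 3 PA6 arrays and on 1 of the 2 co-cultures, and its means of 6.56 and 5.56 were not above the range of the detection levels.

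Set in order over the 6 groups, GSX1, DBX1, NKX6-1 and PAX3 ran from -GFs through FGF2 to BMP4 co-cultures and then to PA6. Neighbouring co-culture groups with FGF2 and BMP4 overlapped for DBX1, NKX6-1 and PAX3 and did not for GSX1. The BMP4 co-cultures overlapped PA6 without growth factors for GSX1, and PA6 with FGF2 and without growth factors for PAX3. The FGF2 co-cultures of PAX3 (6.50 to 7.19) also overlapped PA6 with FGF2 (5.86 to 6.96). IRX3 ran from -GFs through BMP4 to FGF2 co-cultures, with no overlap among them, and then to PA6 with FGF2, with BMP4 and without growth factors.

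Across the 7 co-culture arrays, which share 3 groups, the 5 genes correlated with each other at Pearson r of 0.21 (PAX3 and NKX6-1) to 0.85 (NKX6-1 and DBX1). GSX1 correlated with DBX1 at 0.82, with PAX3 at 0.82, with NKX6-1 at 0.70 and with IRX3 at 0.66. Among the retained genes outside the set, those most like GSX1 over these arrays were NKX2-3 (r = 0.99), PPP1R14B (0.99), HS3ST3B1 (0.98), 9130023F12RIK (0.98) and NDN (0.98). NDN encodes necdin, a growth suppressor of neurons, and HS3ST3B1 a heparan sulfate sulfotransferase. HS3ST3B1 averaged 11.86 in -GFs, 10.79 in FGF2 and 10.42 in BMP4 co-cultures. NKX2-3, a homeodomain factor known from gut and spleen, was detected on only 3 of the 7 arrays, with means of 6.96, 6.46 and 6.24. These correlations are a description of 7 arrays and carry no test.

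Other genes of the same patterning system were taken from 4 lists with 75 genes in all, of which 38 were retained. With FGF2 in co-cultures 2 of the 38 were called higher and 4 lower, where 7.42% of all genes were called. Of the 38 estimates 27 were below 0, and over all genes 55.8% were. Their median change was -0.41, against -0.06 over all genes. Of the 14 retained dorsal genes 2 fell. WNT3A, a roof plate ligand also known from the primitive streak, changed by -1.94 ± 0.47 (SE, adjusted p = 0.0585). Among co-culture groups WNT3A was detected throughout only with -GFs and BMP4, where it was highest, so its FGF2 call carries no support. With replicate numbers as a block WNT3A was not called (adjusted p = 0.101). MSX3, a dorsal homeodomain factor, changed by -1.24 ± 0.32 (SE, adjusted p = 0.0679). Of the 6 intermediate genes IRX5, a second Iroquois factor, fell by 1.17 on the log2 scale (adjusted p = 0.0212). Without -GFs replicate 1 the calls of WNT3A, MSX3 and IRX5 were lost, and those of WNT3A and MSX3 also without -GFs replicate 2. MSX3 lost its call without FGF2 replicate 1 or 2 as well, and with the runs of deposited columns as a block (adjusted p = 0.103). Over the arrays left out WNT3A changed by -2.21 to -1.46, MSX3 by -1.51 to -0.98 and IRX5 by -1.27 to -1.04.

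Of the 13 retained ventral genes 1 was called lower and 2 higher with FGF2. SOX21, a factor of interneuron progenitors that counteracts progenitor maintenance, changed by -1.26 ± 0.20 (SE, adjusted p = 0.0181). OLIG1, the neighbour and relative of OLIG2, rose by 1.55 ± 0.33 (SE, adjusted p = 0.0427), from a group in which 1 of 2 -GFs arrays was detected. FOXN4, a V2 progenitor factor, was retained only through the FGF2 co-cultures, where it was highest, so its call carries no support. Its means were 6.60 without growth factors and 7.61 with FGF2. None of the 5 retained forebrain genes was called. Without -GFs replicate 1 the calls of SOX21, OLIG1 and FOXN4 were lost, and that of FOXN4 also without -GFs replicate 2, FGF2 replicate 1 or FGF2 replicate 3, or with the runs as a block. Over the arrays left out SOX21 changed by -1.42 to -1.11, OLIG1 by 1.19 to 1.91 and FOXN4 by 0.89 to 1.17.

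With BMP4 against -GFs, where 3.75% of all genes were called, 1 of the 38 rose, GATA3, by 1.58 ± 0.28 (SE, adjusted p = 0.041), and 1 fell, SOX21, by 1.29 on the log2 scale (adjusted p = 0.0402). Their median change was -0.22. GATA3 was not called with the runs as a block (adjusted p = 0.117) or with replicate numbers as a block (adjusted p = 0.104). GATA3 marks V2b interneurons and is also a regulator of surface ectoderm and trophoblast. Against FGF2, where 1.44% of all genes were called, BMP4 had 3 of the 38 higher and none lower. These were WNT3A, at 2.77 ± 0.47 (SE, adjusted p = 0.0729), GATA3, at 1.97 ± 0.25 (SE, adjusted p = 0.0353), and IRX5, at 1.01 ± 0.20 (SE, adjusted p = 0.0963). WNT3A was not detected on every FGF2 array and was retained through co-culture groups where it was higher, so its call carries no support. With replicate numbers as a block WNT3A, GATA3 and IRX5 lost their calls against FGF2 (adjusted p of 0.153, 0.145 and 0.179). IRX5 had the same order of co-culture means as IRX3, 11.68 without growth factors, 11.53 with BMP4 and 10.52 with FGF2. GATA3 and SOX21 lost their BMP4 calls without any 1 of the -GFs or BMP4 arrays, at 1.41 to 1.75 and -1.45 to -1.14. Against FGF2, GATA3 lost its call without FGF2 replicate 3 or BMP4 replicate 2 (1.76 to 2.14 over the arrays left out), WNT3A without FGF2 replicate 1 or 3 or either BMP4 array (2.30 to 3.15), and IRX5 without each of the 7 arrays in turn (0.88 to 1.12). In PA6 0 of the 38 were called with either cytokine.

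**Figure D4:**
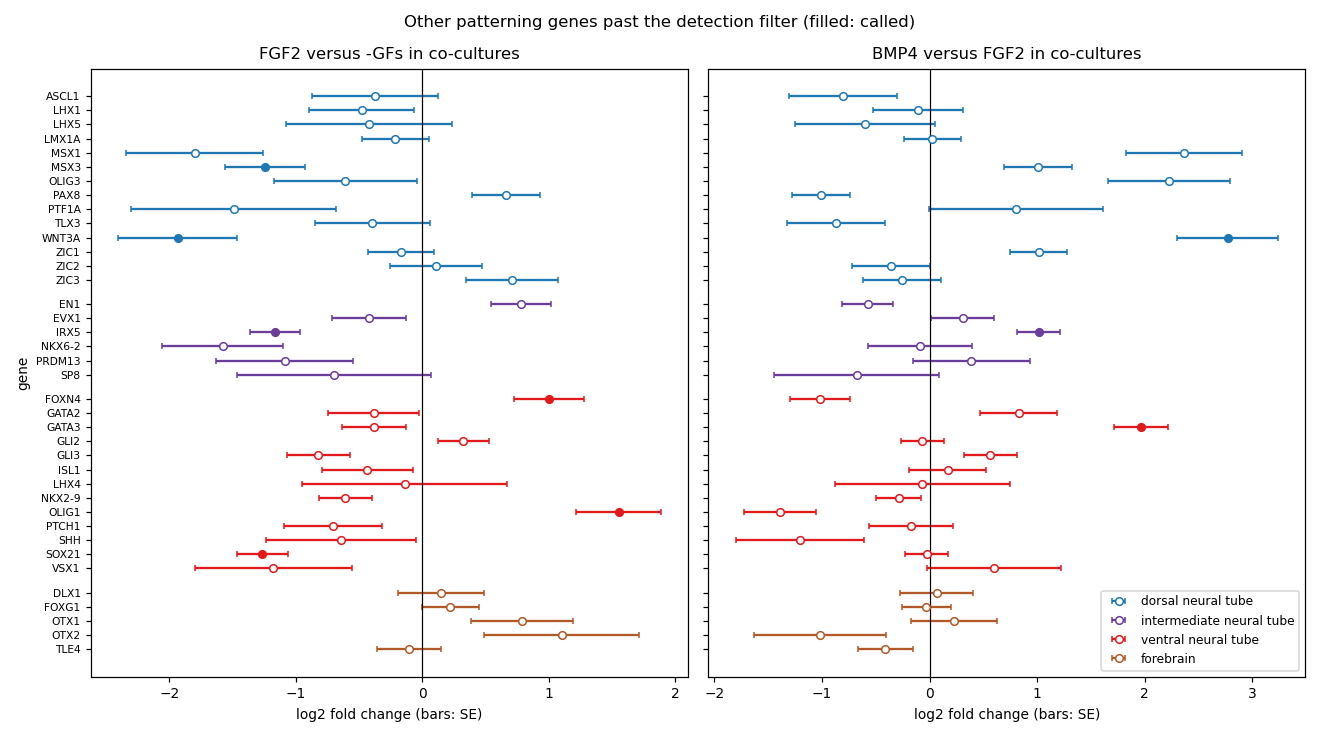
Log2 fold changes (x axis, bars are SE) of the 38 other patterning genes retained, by list, for FGF2 against -GFs (left) and BMP4 against FGF2 (right) in co-cultures, with filled points for called genes. On the left 27 of 38 points are below 0 (55.8% over all genes), and on the right WNT3A, GATA3 and IRX5 are filled and above 0.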

How the data were processed

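RNA from each of 16 cultures had been measured on its own Illumina MouseWG-6 v2.0 array. The authors processed the scans with GenomeStudio 2011.01 and deposited an average bead intensity per probe and array, not normalized between arrays. The deposited detection p-value compares a probe with the negative control beads of its array. Normalized values of the study were not used here.

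The background was removed by normexp with the detection p-values as guide, arrays were quantile normalized together, and log2 was taken with an offset of 16 (neqc, limma 3.58.1, R 4.3.3). Probes with a p-value under 0.05 throughout at least 1 group stayed in (20880), and the probe with the largest mean stood for a gene. Low levels are compressed by the offset. The number of arrays limits the precision.

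Linear models with moderated variance (limma) used the 7 co-culture arrays or the 9 PA6 arrays, and all 16 arrays for comparisons across them. Called genes had a Benjamini-Hochberg adjusted p under 0.1 over 14829 genes and a log2 fold change over 1 in size, the limits in the study's methods. BMP4 against -GFs in co-cultures was not tested for the 10 factors, nor was GSX1 wherever one of those groups entered.

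All 10 factors with each probe are named, the patterning genes called in a comparison, and the 5 genes most correlated with GSX1. The factors and lists were chosen with earlier results of these data known. Gene names are those of the file, and RefSeq (GRCm38.p6) supplied promoters. The labels give biological replicate numbers. Same-numbered co-culture arrays of different groups deviated together in 1 of 6 pairs (r over 0.1, with a range of -0.199 to 0.283). In PA6 they did so in 7 of 9 pairs (0.0697 to 0.199). The numbers were not used to pair arrays in the main fits, and a replicate block was run as an alternative. Simulated data with known changes were used to test the fits. Alternatives covered scaling, background, offset, filter, threshold, arrays in the fit, blocks and leaving out each array.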

Additional observations from a re-analysis of the deposited data

Results flagged for a closer look

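The response of IRX3 to FGF2 in co-cultures was unlike that in PA6 alone, by an interaction term of limma over all 16 arrays that was added after the values had been seen. For IRX3 the difference was -2.29 ± 0.41 (SE, adjusted p = 0.00518), with -1.56 in co-cultures, where all 3 FGF2 arrays lay below both -GFs arrays, and 0.73 in PA6, where all 3 lay above. The PA6 part was not called by limma (adjusted p = 0.482), and the larger part is the co-culture change. The term for IRX3 was called in all 24 alternatives run, at -2.47 to -2.11. These reuse the arrays that prompted the term and add no independent support. The same term for DBX1 was -1.31, but DBX1 was undetected on all 9 PA6 arrays, so no PA6 response was measured and a difference between the cultures cannot be read from it. The value restates the co-culture change of -1.11, which lost its call in 7 of 17 alternatives.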

How the results depend on the processing

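The number of factors called with FGF2 against -GFs in co-cultures was 2. It was 1 with detection required on all 16 arrays, 1 with no filter on dim probes, 1 at an adjusted p under 0.05 and 1 with the replicate block, and 1 to 2 without single arrays. IRX3 kept its call in each of the 18 alternatives. DBX1 lost it in 7 of 17, and NKX6-1 gained one in 3. Detection on all 16 arrays left IRX3 as the only factor measured, which gave 1 called in place of 4 between co-cultures and PA6 with FGF2, without growth factors and with BMP4 (counts that retention through the co-cultures fixes in part), and 0 changed over 1 log2 unit in place of 4 with BMP4 against -GFs. Among the other patterning genes, the FGF2 call of FOXN4 was lost in 12 of 17 alternatives and the call of IRX5 between BMP4 and FGF2 in 15 of 18, each in the same direction. Small differences changed sign. For BMP4 against FGF2, DBX1 was -0.08 and became 0.20 under median scaling and ran from -0.25 to 0.12 without single arrays, NKX6-1 from -1.44 to 0.43 and PAX3 from -0.86 to 0.23. IRX3 with BMP4 in PA6 ran from -0.10 to 0.52. Median scaling put the median of all genes at -0.21 for FGF2 and at 0.29 for BMP4 against FGF2, from -0.06 and 0.04. Relative to it, IRX3 changed by -1.58 with FGF2 and DBX1 by -1.08, and DBX1 differed by -0.09 between BMP4 and FGF2. The share of called genes higher with BMP4 than FGF2 was then 63.8%, against 52.3%.

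Over all genes, the FGF2 count of 1100 was 324 to 1393 and the BMP4 count of 556 was 32 to 870. BMP4 against FGF2 gave 2 to 574 in place of 214, and PA6 gave 0 to 32 with FGF2 in place of 4 and 0 to 6 with BMP4 in place of 0. Between the cultures the count of 6874 with FGF2 was 3575 to 9670, that of 6540 without growth factors 3480 to 9269, that of 6283 with BMP4 3236 to 8818, and the interaction count of 1172 was 451 to 1495. The replicate block gave 988 genes for FGF2, 258 for BMP4, 11 for BMP4 against FGF2 and 23 for FGF2 in PA6. The block of column runs, added after seeing the data, gave 1054, 596, 560 and 23. Co-culture pairs of 1 run correlated at 0.0976 to 0.283 (4 of 5 over 0.1) and pairs of different runs at -0.283 to 0.0976. In PA6 every same-numbered pair correlated (0.0697 to 0.199) above every other pair (-0.136 to -0.0122), and in co-cultures they did not, a hint from the data and not from the design. The causes were not tested. Each co-culture group has 2 or 3 arrays, and PAX3 and GSX1 with BMP4 lie near the detection level.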
